A study of Mus musculus with 4 samples.

Results

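RNA of pre-mRNA splicing factor genes was measured by RNA sequencing in 2 libraries of BV2 cells given lipopolysaccharide (LPS, a bacterial cell wall component) at 10 ng/ml and in 2 libraries of untreated BV2 cells. BV2 is a mouse microglial cell line made permanent by an oncogene. Both groups bear the label Pu.1 KO, made with CRISPR-Cas9 against the gene Spi1, and wild-type cells were not analysed here. The labels give the exposure as 2 h in one field and 4 h in another. Whether the edited line is 1 clone, and whether libraries of a group came from separate cultures, is not stated. In such bulk RNA, fewer cells of a kind and less RNA per cell cannot be told apart. The genes are those whose symbol begins with Srsf or Prpf and a digit, with Hnrnp, or with Sf3a or Sf3b. Of 24411 symbols in the count tables, 53 matched, and 52 of these had at least 10 reads summed over the 4 libraries. The same 52 passed the expression filter and were tested. The tested members with the fewest reads were Hnrnpa1 with 67, Srsf9 with 80 and Hnrnph3 with 96, and below the limit of 10 was Srsf12 with 0. The tested members are 10 SR protein genes, 20 heterogeneous nuclear ribonucleoprotein (hnRNP) genes, 9 genes of the SF3 complexes and 13 PRPF genes.

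Splicing removes introns from pre-mRNA in the spliceosome, which is built from small nuclear ribonucleoproteins (snRNPs). SR proteins carry arginine- and serine-rich regions, bind exonic enhancers and as a rule favour use of the neighbouring splice sites, while many hnRNPs bind silencers or intronic sequence and often work the other way. SF3a and SF3b are parts of the U2 snRNP and hold it at the branch point. The PRPF proteins, named after yeast splicing mutants, belong mostly to the U4/U6.U5 tri-snRNP, to the U1 snRNP or to the machinery of catalysis. In macrophages, splicing of inflammatory transcripts is known to be regulated after activation.

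The libraries held 3256197 and 3749159 gene counts after LPS, against 4502105 and 4115011 in untreated cells. Spi1 had 745 and 958 reads after LPS, against 844 and 743 in untreated cells, which is 258 and 291 CPM after LPS and 161 and 164 CPM in untreated cells. Spi1 passed as higher, by 0.75 ± 0.09 (SE) on the log2 scale with an edgeR adjusted p of 8.77e-10, and also under each of 14 alternative settings, and such counts do not show whether a small edit is present. Of 9 microglial and macrophage markers, all were counted, but P2ry12 was at 1 and 0 reads after LPS and at 12 and 7 in untreated cells. Their summed level was 2055 and 2170 CPM after LPS, against 1629 and 1722 CPM in untreated cells, but single markers went both ways. In both LPS libraries Aif1, Itgam, Ptprc, Tyrobp and Cx3cr1 lay above both untreated ones, and Csf1r, Cd68, P2ry12 and Tmem119 lay below. Ptprc had 517 and 536 CPM after LPS, against 216 and 184 CPM in untreated cells. Tmem119 had 4.85 and 6.07 CPM after LPS, against 16.1 and 22.1 CPM in untreated cells. Markers of fibroblasts, neurons, lymphocytes and epithelium had 0 reads in all libraries, and those of astrocytes and oligodendrocytes at most 4 reads in any. Of the 3 endothelial markers Pecam1 had 0 reads and Cdh5 1 read, and Kdr was at 30.2 and 26.7 CPM after LPS and 14.9 and 14.2 CPM in untreated cells. The part of these marker differences in the results below was not tested. CPM are read counts relative to a library size that was scaled by TMM, which sets the bulk of genes level between libraries.

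The splicing genes moved in both directions, with a median absolute log2 fold change of 0.37, against 0.42 over all genes. Of the 52 tested, 17 were higher and 11 lower after LPS (edgeR quasi-likelihood test, adjusted p below 0.05 over all 9992 genes tested), which is 53.8%, against 51.9% of all genes tested. The higher genes made up 32.7% of the members and 26.6% of all genes, and the lower genes 21.2% and 25.3%. Changes of at least 2-fold were rare: no member was higher by that much and 1 (Sf3b4) was lower, against 9.47% and 7.73% of all genes. At 1.5-fold or more, 5 members were higher and 5 lower (9.62% in each direction), against 17.2% and 16.3% of all genes. The median log2 fold change was 0.06 over the members and 0.00 over all genes. The groups did not overlap for 40 of the 52 members (76.9%), against 75.1% of all genes. The summed level of the 52 genes was 9283 and 9151 CPM after LPS, against 8532 and 8343 CPM in untreated cells. Their share of the raw gene counts ran the other way, at 0.823% and 0.804% after LPS and 0.991% and 0.917% in untreated cells. The ribosomal RNA precursor Rn45s took 20.9% and 19.96% of the gene counts after LPS and 14.6% and 19.0% in untreated cells, and its part in this was not tested.

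**Figure D1:**
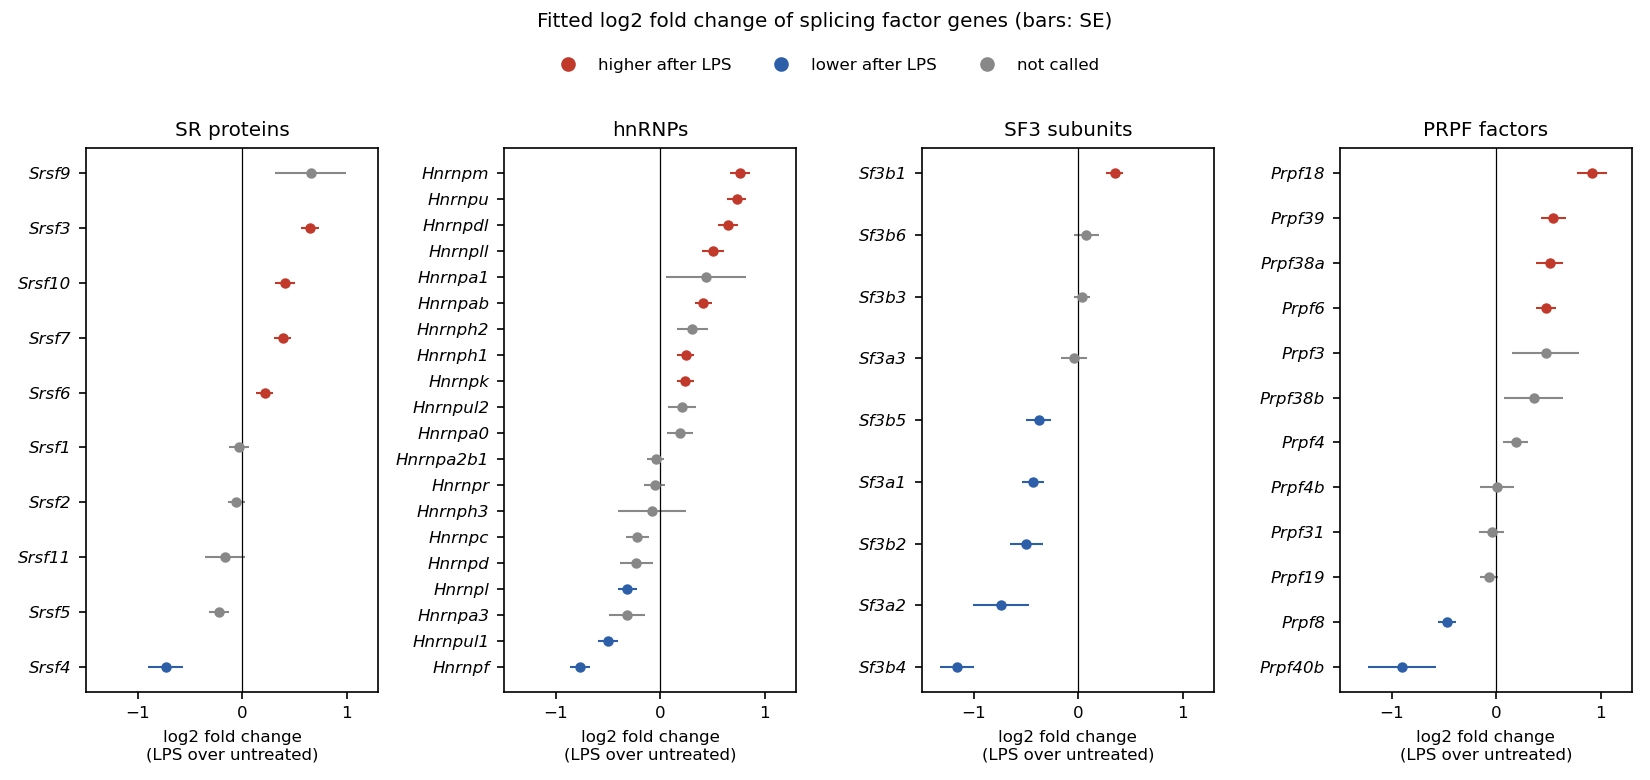
Fitted log2 fold change, LPS over untreated, of 51 of the 52 members (points, with bars for the standard error), by family and ordered by value. Red marks 16 genes higher after LPS, blue the 11 lower and grey the 24 that did not pass the test. SF3 subunits lie mostly left of 0, and the other families have points on both sides.

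The scaling of the libraries bears on all these directions. When libraries were scaled only by their size, the median of all genes moved to -0.36 and that of the members to -0.30, and 5 members were higher and 24 lower. With offsets corrected for transcript GC content the medians were -0.12 for all genes and -0.12 for the members, with 8 members higher and 20 lower, against 1987 and 3015 of all 9649 genes in that fit. Of the called members 60.7% were higher in the TMM-scaled fit, 17.2% under scaling by size and 28.6% after GC correction. Over all called genes these shares were 51.3%, 22.4% and 39.7%, in the same order. In the same direction, 11 members passed under each of the 14 alternatives tried. They were Srsf3, Hnrnpm, Hnrnpu, Hnrnpdl and Prpf18, all higher after LPS, and Srsf4, Hnrnpf, Hnrnpul1, Sf3a1, Sf3b4 and Prpf8, all lower. How many of all genes passed in this way was not counted, so no background share can be set beside these 11.

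**Figure D2:**
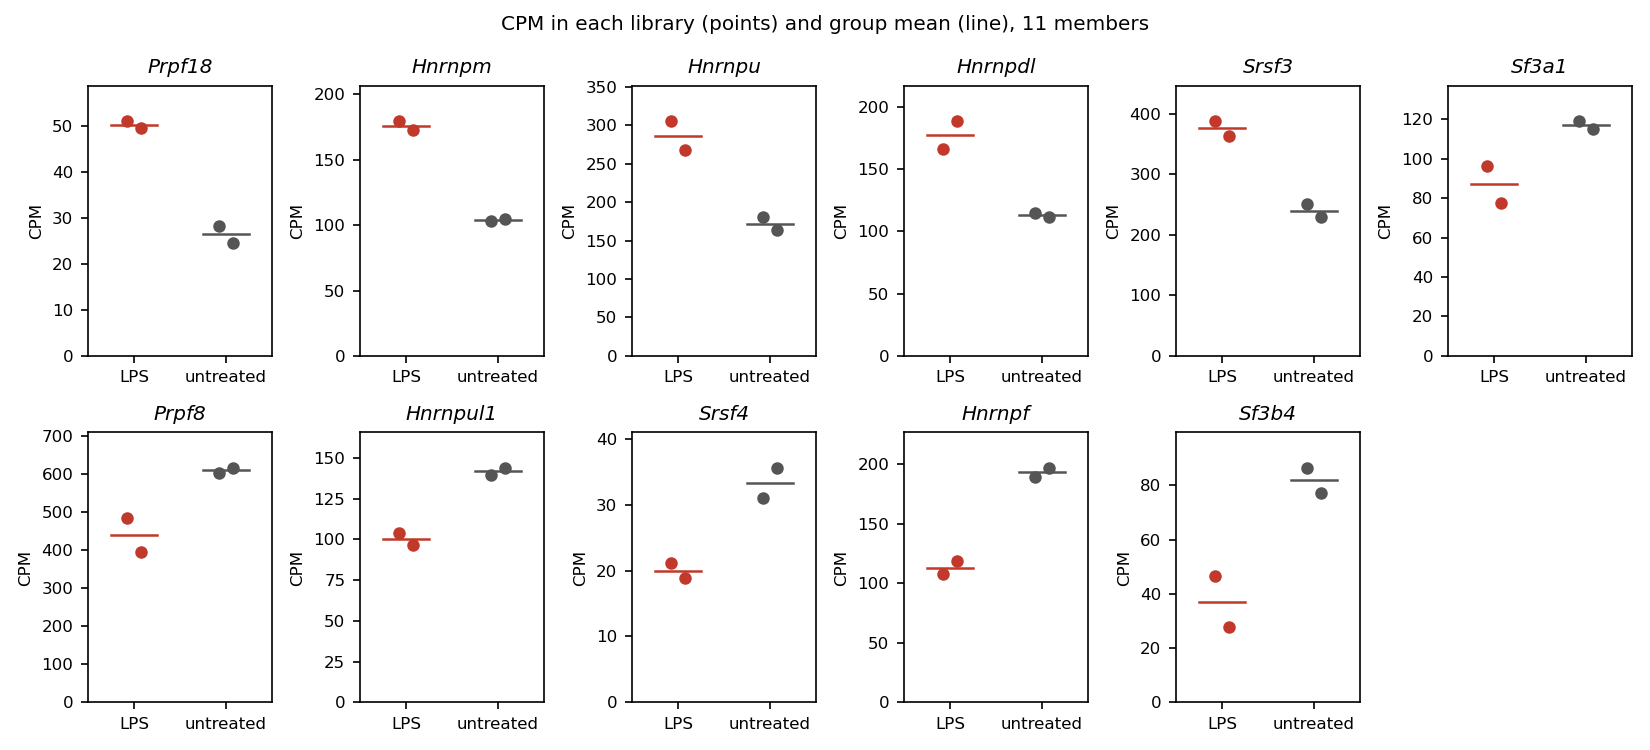
CPM in each library (points) and the mean of each group (line) for the 11 members that passed under every alternative, LPS left and untreated right, each axis starting at 0. The 2 LPS libraries lie on one side of both untreated libraries in all 11 panels. This adds no support, since the members were picked by calls from these same libraries, and 75.1% of all genes had separate groups. The 2 LPS libraries of Sf3b4 lie apart from each other, at 46.4 and 27.6 CPM.

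Promoter sequence was examined for these groups because ETS factors bind motifs with a GGAA core. PU.1 belongs to the ETS family, but no motif particular to PU.1 was searched. RefSeq promoter windows (GRCm38.p6, the 250 bases before each listed start) were found for 46 of the 52 members. The motifs searched on both strands were the ETS core CCGGAAG, the GC box with the letters GGGCGG, the sequence CCAAT, the core promoter motif TATAAA and an interferon-stimulated element (a pair of TTTC repeats with 2 bases of any kind between them), and overlaps between motifs were not removed. Printed below are 6 windows of members that passed under every alternative, with and without the ETS core, picked after the matches were seen. Srsf3 and Hnrnpm were higher and Srsf4, Sf3a1, Hnrnpul1 and Prpf8 lower after LPS. They come from chr17:29032410-29032659 (Srsf3, plus strand), chr17:33685459-33685708 (Hnrnpm, minus strand), chr4:131873387-131873636 (Srsf4, plus strand, the first of 3 listed windows), chr11:4160104-4160353 (Sf3a1, plus strand), chr7:25754760-25755009 (Hnrnpul1, minus strand) and chr11:75486527-75486776 (Prpf8, plus strand). Bases shortly after the listed start were found in a GENCODE transcript of the gene for all these windows but that of Prpf8. Capitals mark the ETS core on either strand.
Srsf3: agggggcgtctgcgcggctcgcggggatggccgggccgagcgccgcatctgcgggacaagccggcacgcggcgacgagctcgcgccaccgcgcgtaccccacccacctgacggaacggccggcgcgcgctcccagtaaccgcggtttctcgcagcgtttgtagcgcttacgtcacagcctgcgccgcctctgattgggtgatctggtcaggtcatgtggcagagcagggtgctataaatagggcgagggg
Hnrnpm: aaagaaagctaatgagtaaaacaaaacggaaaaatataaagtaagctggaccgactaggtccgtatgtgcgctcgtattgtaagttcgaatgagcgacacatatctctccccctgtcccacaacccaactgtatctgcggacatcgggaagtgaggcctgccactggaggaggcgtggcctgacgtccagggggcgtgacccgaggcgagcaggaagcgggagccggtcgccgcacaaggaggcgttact
Srsf4: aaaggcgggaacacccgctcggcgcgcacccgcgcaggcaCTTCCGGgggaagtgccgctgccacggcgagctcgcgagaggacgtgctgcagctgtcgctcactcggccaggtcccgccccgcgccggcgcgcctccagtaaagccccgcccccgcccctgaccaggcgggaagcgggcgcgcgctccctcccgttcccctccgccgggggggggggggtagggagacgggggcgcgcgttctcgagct
Sf3a1: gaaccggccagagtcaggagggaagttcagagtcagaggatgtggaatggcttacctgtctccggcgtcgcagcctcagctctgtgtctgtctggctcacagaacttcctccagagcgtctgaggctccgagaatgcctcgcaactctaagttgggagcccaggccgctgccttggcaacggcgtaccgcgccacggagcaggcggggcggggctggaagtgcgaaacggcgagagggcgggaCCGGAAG
Hnrnpul1: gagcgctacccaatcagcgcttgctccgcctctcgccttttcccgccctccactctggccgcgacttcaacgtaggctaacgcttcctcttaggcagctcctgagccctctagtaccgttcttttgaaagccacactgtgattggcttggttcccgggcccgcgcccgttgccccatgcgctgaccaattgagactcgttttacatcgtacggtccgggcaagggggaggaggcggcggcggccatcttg
Prpf8: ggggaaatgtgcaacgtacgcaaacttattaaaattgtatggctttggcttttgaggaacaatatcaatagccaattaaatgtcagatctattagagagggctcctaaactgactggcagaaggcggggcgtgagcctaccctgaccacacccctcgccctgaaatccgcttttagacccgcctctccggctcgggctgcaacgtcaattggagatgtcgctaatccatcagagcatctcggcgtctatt

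In Sf3a1 the ETS core forms the last bases before the start, in Srsf4 it lies on the opposite strand in the upstream part, and the windows of Srsf3, Hnrnpm, Hnrnpul1 and Prpf8 have no match, so lower members are found with it and without it. A gene was counted if any of its listed windows matched. The ETS core was found in 15 of 46 members (32.6%), against 18% of all genes tested with a window. It was in 1 of 14 members higher after LPS (Srsf7) and in 9 of 23 that did not pass. Of lower members, 5 of 9 held it (Srsf4, Hnrnpf, Sf3a1, Sf3a2 and Sf3b2). The 9 lower members had 16 windows and the 14 higher members 18, so lower members had more windows per gene. Over all genes tested with a window the shares were close together, at 17.0% of genes higher after LPS, 14.7% of lower genes and 20.4% of the rest. By family, the ETS core was in 4 of 10 SR genes, 2 of 18 hnRNP genes, 6 of 7 SF3 genes (all but Sf3b1) and 3 of 11 PRPF genes. The SF3 genes with it were the lower Sf3a1, Sf3a2 and Sf3b2, and Sf3a3, Sf3b3 and Sf3b6, which did not pass. The part of family and of window number in the shares by call was not tested. The GC box was in 71.7% of members and 65.7% of all genes tested, CCAAT in 52.2% and 40.7%, TATAAA in 8.70% and 7.36%, and the interferon-stimulated element in 2.17% and 3.38%. Of all 32851 windows listed, 6.91% held the ETS core, 32.7% the GC box, 33.8% CCAAT, 12.4% TATAAA and 2.98% the interferon-stimulated element. These are matches of letters, counted after the fold changes were known, and no binding was measured.

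Among SR proteins, 4 of 10 genes were higher after LPS, 1 was lower and 5 did not pass. That is 40% higher and 10% lower, against 26.6% and 25.3% of all genes. Called in either direction were 50% of SR genes and 51.9% of all genes. Srsf3, which encodes one of the smallest SR proteins and acts in splicing and mRNA export, had 388 and 364 CPM after LPS, against 250 and 229 CPM in untreated cells. Both LPS libraries lay above both untreated ones, and the fitted difference was 0.65 on the log2 scale (SE 0.09, edgeR adjusted p = 1.34e-08). Srsf4, a large SR protein gene, moved the other way, with 21.1 and 18.8 CPM after LPS and 31.0 and 35.6 CPM in untreated cells (log2 fold change -0.74, SE 0.17, edgeR adjusted p = 2.4e-04).

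Srsf7, a close relative of Srsf3, stood at 358 and 378 CPM after LPS, against 286 and 279 CPM in untreated cells (log2 fold change 0.39, SE 0.08, edgeR adjusted p = 1.5e-04). Srsf10, whose protein is known as a repressor of splicing when dephosphorylated, had 217 and 203 CPM after LPS and 169 and 146 CPM in untreated cells (log2 fold change 0.41, SE 0.09, edgeR adjusted p = 2.45e-04). Groups of both genes were separate. Srsf6, one of the 2 SR genes with most reads, had 455 and 455 CPM after LPS against 407 and 378 CPM in untreated cells (log2 fold change 0.21, edgeR adjusted p = 0.0282).

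Srsf2, the other one and known for binding both purine- and pyrimidine-rich enhancers, had 390 and 436 CPM after LPS and 434 and 427 CPM in untreated cells, so its groups overlapped (log2 fold change -0.06, SE 0.08, edgeR adjusted p = 0.581). Per kilobase of the longest transcript it was the highest SR gene, at 218 CPM per kb after LPS and 227 CPM per kb in untreated cells. Srsf7 came next at 153 and 117 CPM per kb. Srsf1, the founding member of the family, also overlapped, with 134 and 131 CPM after LPS and 140 and 131 CPM in untreated cells. Srsf5 was at 132 and 122 CPM after LPS and 144 and 151 CPM in untreated cells, just outside the threshold (log2 fold change -0.22, edgeR adjusted p = 0.0510). Srsf9 (log2 fold change 0.65, SE 0.34) and Srsf11 (-0.16, SE 0.19) did not pass. Srsf9 had 80 reads over the 4 libraries, and Srsf12 had 0 of 15622472 gene counts, which allows a level of up to 0.192 CPM over the 4 libraries.

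Srsf3 and Srsf4 aside, the SR calls depended on the processing. Srsf6, Srsf7 and Srsf10 missed the threshold under scaling by size (log2 fold changes -0.15, 0.027 and 0.051) and after GC correction (-0.15, -0.011 and 0.010), and Srsf1, Srsf5 and Srsf11 passed as lower under both. Srsf6 also missed it with upper quartile scaling (adjusted p = 0.231), with DESeq2 (0.083) and with no filter (0.0576). Without untreated replicate 2 the adjusted p was 0.347 for Srsf6 and 0.0590 for Srsf10, without untreated replicate 1 it was 0.0887 for Srsf6, and without LPS replicate 1 Srsf5 passed (0.0202). Srsf5 passed as lower under 8 of the 14 alternatives in all, among them upper quartile scaling (0.00498), both other filters (0.0353 and 0.0444), unstranded counts (0.0425) and the fit without 5 abundant entries (0.0466). Srsf2 passed as lower under scaling by size (log2 fold change -0.42).

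Shares within a family do not depend on how libraries are scaled. Srsf3 took 18.3% and 17.1% of the SR gene counts after LPS, against 13.3% and 12.7% in untreated cells. The share of Srsf2 was 18.4% and 20.4% after LPS, against 23.0% and 23.7% in untreated cells. Srsf4 stood at 0.998% and 0.883% after LPS, against 1.64% and 1.98% in untreated cells. The shares of all tested SR genes separated the groups, except that of Srsf6, at 21.5% and 21.3% after LPS and 21.6% and 21.0% in untreated cells. Because the shares of a family add up to the whole, a rise of some members lowers the shares of others. In CPM, the groups of Srsf2 overlapped, and those of 75.1% of all genes did not.

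**Figure D3:**
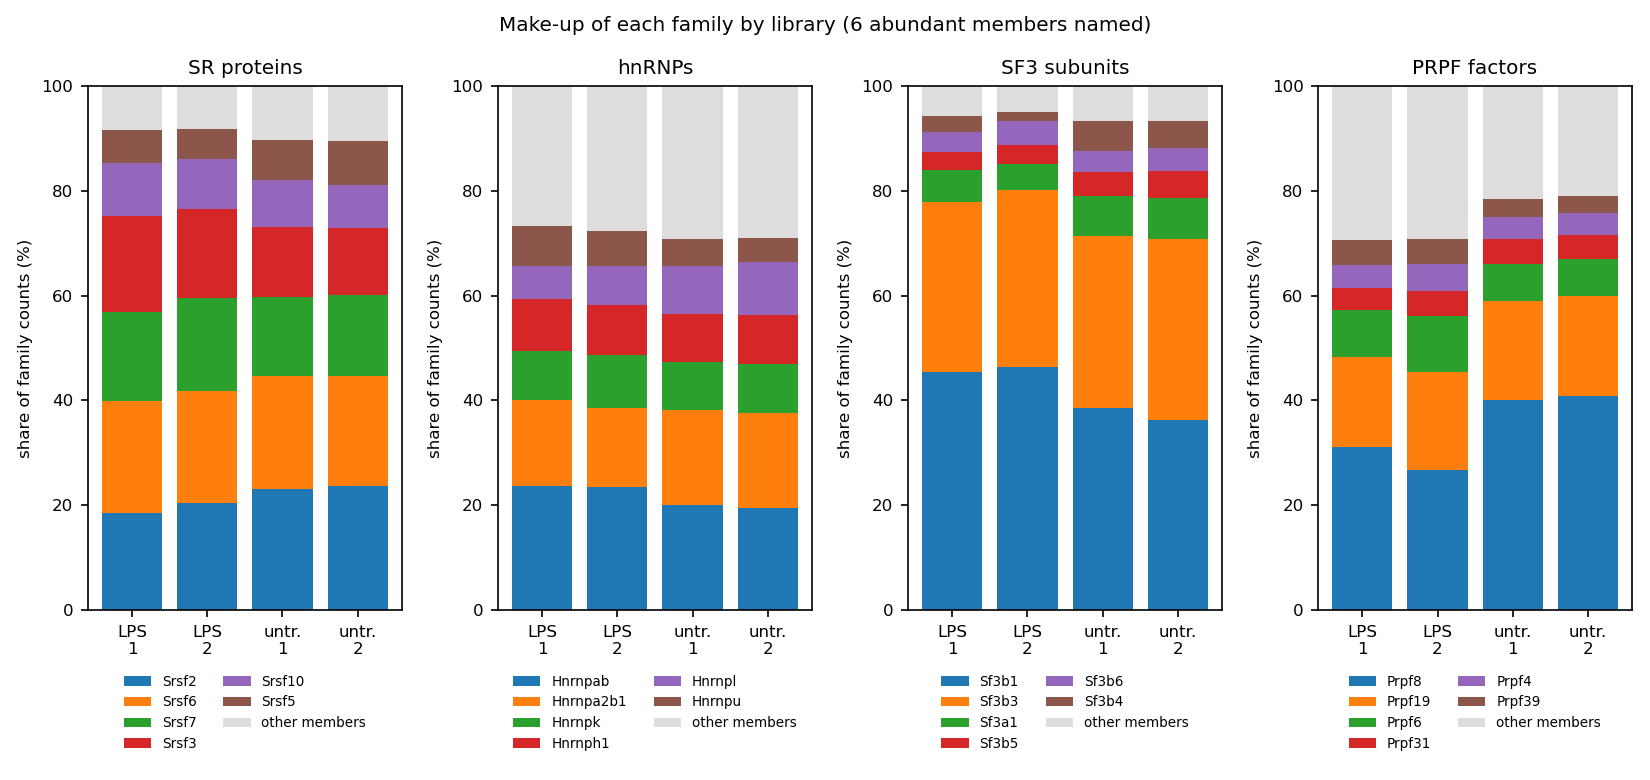
Share of each family's gene counts taken by 6 of its abundant members, in % on the vertical axis, for the 2 LPS libraries (left) and the 2 untreated libraries (right) of each panel, with all other members in light grey. After LPS the bars of Srsf3 and Sf3b1 are taller and those of Srsf2, Sf3a1 and Prpf8 shorter than in both untreated libraries.

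Of the 20 hnRNP genes, 7 were higher after LPS, 3 were lower and 10 did not pass. These are 35% higher and 15% lower, beside 26.6% and 25.3% of all genes. Called in either direction were 50% of hnRNP genes and 51.9% of all genes. Hnrnpm, whose protein is known in mouse macrophages as a restraint on splicing of Il6 transcripts, had 180 and 172 CPM after LPS, against 103 and 105 CPM in untreated cells (log2 fold change 0.76, SE 0.10, edgeR adjusted p = 2.6e-09). Hnrnpu, a nuclear scaffold protein gene also known as SAF-A, had 305 and 268 CPM after LPS, against 181 and 163 CPM in untreated cells (log2 fold change 0.73, SE 0.09, edgeR adjusted p = 2.7e-09). Both genes were above every untreated library in both LPS libraries.

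Hnrnpdl, a relative of the AU-rich element binding gene Hnrnpd, had 166 and 188 CPM after LPS and 115 and 111 CPM in untreated cells (log2 fold change 0.65, SE 0.10, edgeR adjusted p = 1.3e-07). Hnrnpd itself did not pass, with 28.4 and 27.6 CPM after LPS and 35.6 and 29.9 CPM in untreated cells (log2 fold change -0.23, SE 0.16). Hnrnpf, whose protein binds runs of G, was lower. It had 107 and 119 CPM after LPS, against 189 and 197 CPM in untreated cells (log2 fold change -0.77, SE 0.10, edgeR adjusted p = 2.5e-09).

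Hnrnph1, a relative of Hnrnpf that binds the same kind of sequence, had 393 and 382 CPM after LPS and 328 and 327 CPM in untreated cells (log2 fold change 0.24, SE 0.08, edgeR adjusted p = 0.0129). Its relatives Hnrnph2 (log2 fold change 0.31, SE 0.14) and Hnrnph3 (-0.08, SE 0.33) did not pass. Within the family, Hnrnpf took 2.68% and 2.99% of hnRNP counts after LPS, against 5.28% and 5.55% in untreated cells. The share of Hnrnph1 was 9.80% and 9.60% after LPS, against 9.13% and 9.22% in untreated cells.

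Hnrnpab, the member with most reads, had 948 and 934 CPM after LPS, against 720 and 692 CPM in untreated cells (log2 fold change 0.41, SE 0.08, edgeR adjusted p = 2.08e-05). It was also the highest per kilobase of the longest transcript, at 397 CPM per kb after LPS and 298 CPM per kb in untreated cells. Second in reads among hnRNP genes, Hnrnpa2b1, an RNA-binding protein gene with roles in splicing and RNA sorting, had 659 and 595 CPM after LPS and 650 and 643 CPM in untreated cells. Its groups overlapped, and the log2 fold change was -0.04 (SE 0.08, edgeR adjusted p = 0.669). Of the remaining called genes, Hnrnpll, known for its part in Ptprc (CD45) splicing in lymphocytes, had a log2 fold change of 0.50, Hnrnpk of 0.24, Hnrnpl of -0.32 and Hnrnpul1, a relative of Hnrnpu, of -0.50.

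The members that did not pass were Hnrnpa0, Hnrnpa1, Hnrnpa2b1, Hnrnpa3, Hnrnpc, Hnrnpd, Hnrnph2, Hnrnph3, Hnrnpr and Hnrnpul2, with log2 fold changes of -0.32 (Hnrnpa3) to 0.44 (Hnrnpa1). Hnrnpa1 is counted with reservation. It had 10 and 21 reads after LPS and 23 and 13 in untreated cells, the fewest of any tested member, and 9 other annotated genes (all pseudogenes) share at least 200 bases with its transcript at 95% identity or more. Hnrnpa3 had 28 genes with such shared sequence (27 of them pseudogenes), Hnrnpf 9 (6 pseudogenes) and Srsf3 4 (3 pseudogenes). Reads placed at several positions are not in these counts. Transcripts of other named genes share such sequence with Srsf2 (Mettl23 and Mfsd11), Hnrnpm (March2), Hnrnpab (Phykpl), Sf3a2 (Plekhj1) and Prpf39 (Fkbp3). Further genes not annotated as pseudogenes do so with Hnrnpf (4933440N22Rik, Gm28901 and Gm47882), Srsf3 (Gm12355) and Srsf4 (Gm12992). Hnrnpa3, Hnrnpd, Hnrnpr, Hnrnpul2 and Sf3b2 have such a gene too. How far such shared sequence changes the levels was not tested.

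Hnrnpm, Hnrnpu, Hnrnpdl, Hnrnpul1 and Hnrnpf aside, Hnrnpab missed the threshold under scaling by size (log2 fold change 0.055), Hnrnpll both under that scaling (0.14) and after GC correction (0.081), and Hnrnpk with DESeq2 (adjusted p = 0.0532). Hnrnph1 and Hnrnpk turned negative under scaling by size (log2 fold changes -0.11 and -0.12) and after GC correction (-0.28, edgeR adjusted p = 0.00406, and -0.12), neither passed with upper quartile scaling (adjusted p = 0.131 and 0.142), and neither passed without untreated replicate 1 (adjusted p = 0.126 and 0.145) or replicate 2 (0.135 and 0.131). Hnrnpl did not pass without untreated replicate 2 (0.0983), and Hnrnph2 passed without LPS replicate 1 (0.0326) and with unstranded counts (0.0471). Hnrnpa2b1 (log2 fold changes -0.40 and -0.38), Hnrnpr (-0.41 and -0.47), Hnrnpc (-0.58 and -0.58), Hnrnpd (-0.59 and -0.62) and Hnrnpa3 (-0.68 and -0.76) passed as lower under scaling by size and after GC correction. Hnrnpc (-0.32) and Hnrnpa3 (-0.42) also did so with upper quartile scaling, and Hnrnpa0 passed as higher after GC correction (0.33, edgeR adjusted p = 0.0188).

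Of the 9 SF3 genes, 5 were lower after LPS, 1 was higher and 3 did not pass, and the median log2 fold change was -0.38. Lower were thus 55.6% and higher 11.1%, against 25.3% and 26.6% of all genes. Sf3b4, an SF3b subunit that contacts pre-mRNA near the branch point, had 46.4 and 27.6 CPM after LPS, against 86.4 and 77.2 CPM in untreated cells (log2 fold change -1.16, SE 0.16, edgeR adjusted p = 6.06e-06). Its 2 LPS values lay apart from each other, both below the untreated ones, and the log2 fold change was -1.57 without LPS replicate 1 and -0.82 without LPS replicate 2. Sf3a1, the SF3a subunit that meets the U1 snRNP, had 96.3 and 77.4 CPM after LPS and 119 and 115 CPM in untreated cells (log2 fold change -0.43, SE 0.11, edgeR adjusted p = 8.2e-04).

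Sf3a2, another SF3a subunit, had 10.05 and 5.46 CPM after LPS and 12.05 and 13.5 CPM in untreated cells (log2 fold change -0.74, SE 0.27, edgeR adjusted p = 0.0192). Sf3b2, a large SF3b subunit, had 31.2 and 23.1 CPM after LPS and 39.4 and 36.5 CPM in untreated cells (log2 fold change -0.50, SE 0.16, edgeR adjusted p = 0.0065). Sf3b5, a small SF3b subunit, was also lower (log2 fold change -0.38). The third SF3a gene, Sf3a3, did not pass, with 50.6 and 48.9 CPM after LPS and 53.2 and 48.9 CPM in untreated cells.

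Sf3b1, the scaffold of SF3b that clamps the branch point and is recurrently mutated in myeloid neoplasms, was the exception among called genes. It had 720 and 725 CPM after LPS, against 598 and 537 CPM in untreated cells (log2 fold change 0.35, SE 0.08, edgeR adjusted p = 3.45e-04). Its partner in the complex, Sf3b3, had 515 and 529 CPM after LPS and 507 and 513 CPM in untreated cells (log2 fold change 0.04, SE 0.08, edgeR adjusted p = 0.735). Sf3b6, which binds Sf3b1 and the branch point, did not pass either (log2 fold change 0.08, SE 0.12). Sf3b1 took 45.4% and 46.3% of SF3 counts after LPS, against 38.6% and 36.3% in untreated cells, and Sf3b4 took 2.92% and 1.76% after LPS, against 5.58% and 5.21% in untreated cells.

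Sf3b1 missed the threshold under scaling by size (log2 fold change -0.011), after GC correction (-0.034) and without untreated replicate 2 (adjusted p = 0.0825), and Sf3a2, Sf3b2 and Sf3b5 did not pass with DESeq2 (adjusted p = 0.204, 0.125 and 0.0929). Without LPS replicate 2, the library with the lower values of Sf3b4, the adjusted p was 0.376 for Sf3a2 and 0.187 for Sf3b2. Without untreated replicate 1 it was 0.0788 for Sf3b2, without untreated replicate 2 0.0949 for Sf3a2 and 0.119 for Sf3b5, and Sf3a2 also did not pass after GC correction (0.347). Sf3b3 (log2 fold change -0.32) and Sf3a3 (-0.40) passed as lower under scaling by size, and Sf3b6 (-0.30) after GC correction.

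Of the 13 PRPF genes, 5 were higher after LPS, 2 were lower and 6 did not pass. Higher were thus 38.5% and lower 15.4%, against 26.6% and 25.3% of all genes. Called in either direction were 53.8% of PRPF genes and 51.9% of all genes. Prpf18, a factor of the second catalytic step, had 50.9 and 49.5 CPM after LPS, against 28.3 and 24.5 CPM in untreated cells. This was the largest fitted rise of any member, at 0.92 on the log2 scale (SE 0.14, edgeR adjusted p = 3.56e-07). Prpf39, a U1 snRNP protein in yeast, had 76.6 and 71.9 CPM after LPS and 52.2 and 49.3 CPM in untreated cells (log2 fold change 0.55, SE 0.12, edgeR adjusted p = 1.7e-04).

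Prpf38a, a factor of spliceosome activation, had 51.98 and 55.6 CPM after LPS, against 36.9 and 38.7 CPM in untreated cells (log2 fold change 0.51, SE 0.13, edgeR adjusted p = 9.5e-04). Prpf40b, a relative of the yeast U1 protein Prp40, was lower, with 13 and 13 reads after LPS and 43 and 34 in untreated cells (log2 fold change -0.90, SE 0.33, edgeR adjusted p = 0.0192). Prpf6, which bridges parts of the tri-snRNP, was higher (log2 fold change 0.48, SE 0.10).

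Prpf8, the large U5 protein at the heart of the spliceosome, had 485 and 395 CPM after LPS, against 605 and 617 CPM in untreated cells (log2 fold change -0.48, SE 0.09, edgeR adjusted p = 1.1e-05). Its share of PRPF counts was 31.0% and 26.7% after LPS, against 40.03% and 40.8% in untreated cells. Per kilobase of the longest transcript Prpf8 was the highest PRPF gene, at 59.1 CPM per kb after LPS and 82.1 CPM per kb in untreated cells. Prpf19, the ubiquitin ligase of the Prp19 complex, had 271 and 277 CPM after LPS and 286 and 289 CPM in untreated cells (log2 fold change -0.07, SE 0.09, edgeR adjusted p = 0.519). Of the tri-snRNP genes Prpf3, Prpf4 and Prpf31, none passed (log2 fold changes 0.47, 0.19 and -0.04), nor did Prpf38b (0.36) or the kinase gene Prpf4b (0.01).

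Prpf39 and Prpf38a missed the threshold under scaling by size (log2 fold changes 0.19 and 0.15) and after GC correction (0.041 and 0.065), and Prpf6 under scaling by size (0.12). Prpf40b did not pass with DESeq2 (adjusted p = 0.210), after GC correction (0.0820), without untreated replicate 1 (0.110) or without LPS replicate 2 (0.105). Prpf3 had 27 and 53 reads in the 2 untreated libraries and passed as higher without untreated replicate 2 (log2 fold change 1.14, edgeR adjusted p = 0.0066) and without LPS replicate 1 (0.0403). Prpf19 (log2 fold change -0.43) and Prpf31 (-0.40) passed as lower under scaling by size, and Prpf4b (-0.41) after GC correction.

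Transcript GC content moved with these differences. The 17 higher members had a median GC content of 41.6% (37.1% to 52.03%) and the 11 lower members one of 54.0% (45.5% to 62.2%), against 44.1% for the members that did not pass and 49.3% over 9649 tested genes with a value. Across the 52 members the log2 fold change and GC content had a Pearson correlation of -0.54 and a Spearman correlation of -0.48. Over all 9649 genes these were -0.21 and -0.31. Both are correlations across genes of the same 4 libraries, given as a description. After GC correction 16 of the 28 called members kept their call and direction, among them the 11 listed above.

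**Figure D4:**
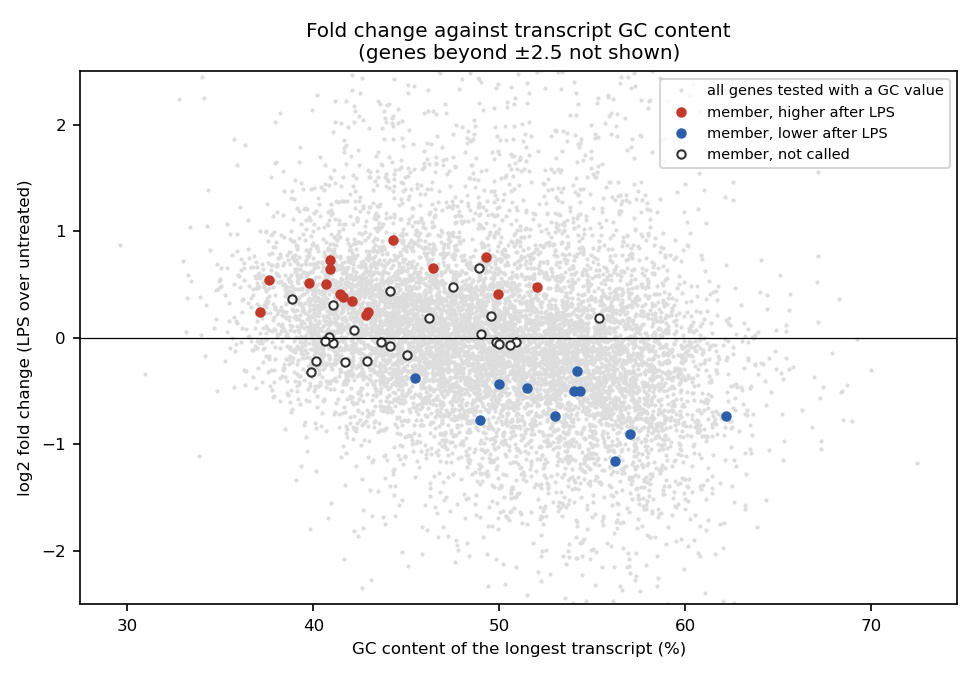
Log2 fold change, LPS over untreated (vertical axis), against the GC content of the longest transcript in % (horizontal axis), for all genes with a GC value (light grey) and 51 of the 52 members. Red points are members higher after LPS, blue points are lower members, mostly further right, and open points did not pass.

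Other genes of the splicing machinery, from 4 lists outside the symbol rule, also moved both ways, as did genes at large. Of all genes tested 26.6% were higher and 25.3% lower, which is the background for the counts of each list. Of 15 tested SR kinases and SR-like cofactors, 2 were higher and 1 lower, with a median log2 fold change of 0.06. Tra2a, a splicing activator that resembles SR proteins, had 139 and 126 CPM after LPS, against 84.1 and 73.9 CPM in untreated cells (log2 fold change 0.74, SE 0.11). Its paralog Tra2b (log2 fold change 0.44) and the kinase gene Dyrk1a (-0.44) passed too, but neither passed with DESeq2 (adjusted p = 0.132 and 0.152) or without untreated replicate 1 (0.0553 and 0.0932). Tra2b also missed the threshold under scaling by size (log2 fold change 0.078), after GC correction (-0.013) and without untreated replicate 2 (adjusted p = 0.101), and Dyrk1a without LPS replicate 2 (0.0701). Of the SRPK and CLK kinases, which phosphorylate SR proteins, Srpk1 (log2 fold change -0.13, SE 0.09) and Clk1 (0.07, SE 0.13) did not pass. Neither did Srpk2 (-0.19, SE 0.14), Clk3 (-0.54, SE 0.37) or Clk4 (-0.17, SE 0.15), and Srpk3 and Clk2 were not tested.

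Of 32 snRNP protein genes outside the rule, 9 were higher and 10 lower (median log2 fold change -0.07). Snrnp70, the U1-70K protein gene, had 53.4 and 45.8 CPM after LPS, against 16.3 and 14.4 CPM in untreated cells (log2 fold change 1.68, SE 0.16, edgeR adjusted p = 9.02e-13). Genes of the Sm core were split. Snrpd3 (log2 fold change 0.87), Snrpd1 (0.66), Snrpf (0.43) and Snrpe (0.39) were higher, while Snrpg (-0.62), Snrpd2 (-0.41) and Snrpb (-0.30) were lower, and all of these but Snrpd3 and Snrpd1 were named after their values were seen. Phf5a, a further SF3b subunit whose symbol is outside the rule, was lower (log2 fold change -0.35, SE 0.11), and it was named after its value was seen.

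Of 32 tested other splicing regulators, 11 were higher and 7 lower (median log2 fold change 0.14). Ptbp1, a repressor of exon inclusion also called hnRNP I, had 471 and 536 CPM after LPS, against 918 and 950 CPM in untreated cells (log2 fold change -0.89, SE 0.08, edgeR adjusted p = 5.5e-13). Mbnl2, a muscleblind splicing regulator, was higher, with 98.4 and 95.02 CPM after LPS and 31.2 and 33.8 CPM in untreated cells (log2 fold change 1.57, SE 0.12), and so was Fubp1 (0.80). Of 24 genes of the Prp19 complex, the catalytic steps and the exon junction complex, 8 were higher and 3 lower (median log2 fold change 0.15). Slu7, which acts with Prpf18 in the second step in yeast, had 64.5 and 50.7 CPM after LPS and 31.0 and 32.5 CPM in untreated cells (log2 fold change 0.85, SE 0.14), and Crnkl1 (0.83) and Snw1 (0.57) were higher too. Snw1 did not pass under scaling by size (log2 fold change 0.22, adjusted p = 0.097) or after GC correction (0.18, adjusted p = 0.111).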

How the data were processed

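Per the labels' protocols, the libraries are strand-specific and ribosomal RNA was removed. The protocol text also names human mesenchymal stem cells. Per the submitters' processing notes, the tools were Trimmomatic 0.33, CASAVA 1.8.2, DESeq2 and STAR 2.5.1, and the build was hg19, a human one, although the gene symbols are mouse. No coordinates were therefore taken from the counts. The authors deposited raw counts of reads per gene, neither normalised nor pooled. The column for reverse-strand reads was used, since it held 78.7 to 95.3 times the gene counts of the forward one. The 4 summary rows were left out. Reads in no feature were 59.1% and 57.4% of uniquely placed reads after LPS and 53.0% and 51.8% in untreated cells.

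edgeR 4.0.16 in R 4.3.3 was used with its expression filter (9992 genes kept of 12982 with a count), TMM scaling, the robust two-sided quasi-likelihood test with treatment as the only term, and Benjamini-Hochberg adjustment over all genes. An approximate SE was taken as the absolute log2 fold change over the root of the F statistic. The fit was tested on simulated data. The p-values measure the spread between these libraries, which may be technical. Chi-square per degree of freedom between the 2 libraries of a group was 2.44 for LPS and 1.52 for untreated, so no pair looked like 1 library deposited again. This does not show that they came from separate cultures. Alternatives were RLE, upper quartile and library size scaling, DESeq2 1.42.0, 2 other filters, unstranded counts, a replicate block, 5 abundant entries left out, GC-corrected offsets and each library left out. GC content and length are those of the longest GENCODE transcript with the symbol, which need not be the one expressed. Other lengths were not tried, so rankings per kilobase rest on this choice. Near-identical transcripts were found with blastn 2.17.0. Promoter sequences are from RefSeq (GRCm38.p6).

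For each family, values in every library are given for the 4 called members with the largest change and the 2 with most reads, and up to 3 called genes from each list of other splicing genes by smallest p. Other called members are given by their log2 fold change. The totals include 1 member that is not reported here by itself. Further genes with values in every library were chosen after these were seen. The members, lists and motifs were chosen with earlier results of these data known.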

Additional observations from a re-analysis of the deposited data

How the results depend on the processing

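All 28 called members kept their call and direction under RLE scaling, unstranded counts and the fit without 5 abundant entries. They also did so with the filter of at least 1 CPM in a pair of libraries and with the replicate block. The replicate block gave 17 higher and 11 lower members. With no filter beyond 1 count, 27 kept their call, and Srsf6 did not pass (edgeR adjusted p = 0.0576). Same-numbered libraries did not deviate together (correlation -0.043 across genes), but this does not show whether they shared a culture or day. Under scaling by library size, 5 members were higher and 24 lower, their median log2 fold change was -0.30, and over all genes 1379 were higher and 4778 lower. After GC correction, 8 members were higher and 20 lower, with a median of -0.12, and over the 9649 genes tested 1987 were higher and 3015 lower. With DESeq2, 7 members and 1486 of all genes were lower. Leaving out each library in turn gave 13 to 19 higher and 8 to 12 lower members and medians of 0.021 to 0.095, with 2114 to 2547 higher and 1949 to 2370 lower genes overall.

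Some log2 fold changes turned their direction, and the cause was not tested. Under scaling by library size these were Hnrnph1 -0.11, Hnrnph2 -0.050, Hnrnpk -0.12, Hnrnpul2 -0.15, Hnrnpa0 -0.17, Prpf4 -0.17, Prpf4b -0.35, Sf3b1 -0.011, Sf3b3 -0.32, Sf3b6 -0.28 and Srsf6 -0.15. After GC correction they were Hnrnph1 -0.28, Hnrnph2 -0.10, Hnrnpk -0.12, Prpf38b -0.11, Prpf4 -0.049, Prpf4b -0.41, Sf3b1 -0.034, Sf3b3 -0.081, Sf3b6 -0.30, Srsf6 -0.15, Srsf7 -0.011 and Tra2b -0.013. With upper quartile scaling they were Prpf4b -0.087, Sf3b3 -0.061 and Sf3b6 -0.021, and without a filter Prpf4b -0.014. Leaving out 1 library turned 11 members that had not passed. Over these fits Hnrnpa1 ranged over -0.089 to 0.79, Hnrnpa2b1 over -0.12 to 0.027, Hnrnpr over -0.12 to 0.00076, Hnrnph3 over -0.43 to 0.24, Prpf3 over -0.038 to 1.14, Prpf4b over -0.27 to 0.27, Prpf31 over -0.12 to 0.019, Sf3b6 over -0.010 to 0.15, Sf3a3 over -0.10 to 0.019, Srsf1 over -0.085 to 0.014 and Srsf2 over -0.14 to 0.018. Hnrnpa1, Srsf9 and Hnrnph3 have the fewest reads, and depth limits what can be said of them.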

Other observations

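Reads on the strand opposite to the members were few, at 0.569% of their stranded counts, against 1.14% over all genes. Prpf39 had the largest share of the members, 22.8%. Opposite to it, 48 and 47 reads were counted after LPS and 98 and 88 in untreated cells, while its own strand held 221 and 237 reads after LPS and 273 and 223 in untreated cells. A transcript of Fkbp3 shares sequence with that of Prpf39. The difference in opposite-strand counts was not tested. The next share was that of Prpf40b, 6.36%, which rests on 7 reads.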
